A study of Homo sapiens with 6 samples.

Results

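The 50 genes described here belong to the pathway that carries growth factor signals to the kinase ERK. They were chosen as a listed set of receptors, kinases of the cascade, feedback inhibitors and immediate early genes, by name and with earlier results of these data known. The deposited table held 62754 genes. Each of the 50 was found in it under 1 gene identifier, and all 50 were among the 20992 genes with enough counts to be tested. RNA-seq counts came from 3 control and 3 FAM60A-knockout libraries of HEK293, a line derived from human embryonic kidney, for which the labels also name HEK293T. FAM60A is now named SINHCAF in gene catalogues, and its protein belongs to the Sin3/HDAC complex, which removes acetyl groups from histones. The knockout was made by transfecting Cas9 and guides against 3 regions of FAM60A and selecting with puromycin, and the cells were kept as a pool and not as 1 clone. All cells grew in medium with serum, and the labels do not say whether control cells passed through a control vector or the same selection. The labels number the replicates of each group but do not say whether they came from separate cultures, so p-values measure only the spread between these libraries, which may be technical.

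Receptor tyrosine kinases at the cell surface activate RAS proteins, which recruit RAF kinases, which phosphorylate MEK, which phosphorylates ERK. ERK enters the nucleus and raises transcription of immediate early genes within minutes, without new protein synthesis. Several of its later targets are its own inhibitors, among them dual-specificity phosphatases, Sprouty proteins and SPRED proteins, and serum in the medium is a standing source of such signals.

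The immediate early genes are known for control elements close to their start sites, so the bases just before the start of 5 members are printed here. EGR1 is shown for its serum-type boxes, DUSP1 and MAFF for a cAMP response element, and JUN and DUSP2 as members whose counts differed between the groups. Each line is the 250 bases before the RefSeq start on GRCh38.p14, 5′ to 3′ on the gene's strand, with matches to the motifs below in capitals. The windows lie at chr5:138465229-138465478 on the plus strand, chr5:172771196-172771445 on the minus strand, chr22:38201744-38201993 on the plus strand, chr1:58784048-58784297 on the minus strand and chr2:96145441-96145690 on the minus strand.
EGR1: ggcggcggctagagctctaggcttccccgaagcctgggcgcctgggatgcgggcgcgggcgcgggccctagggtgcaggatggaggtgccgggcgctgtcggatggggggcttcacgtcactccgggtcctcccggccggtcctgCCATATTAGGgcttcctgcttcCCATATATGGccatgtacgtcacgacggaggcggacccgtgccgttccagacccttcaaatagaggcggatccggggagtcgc
DUSP1: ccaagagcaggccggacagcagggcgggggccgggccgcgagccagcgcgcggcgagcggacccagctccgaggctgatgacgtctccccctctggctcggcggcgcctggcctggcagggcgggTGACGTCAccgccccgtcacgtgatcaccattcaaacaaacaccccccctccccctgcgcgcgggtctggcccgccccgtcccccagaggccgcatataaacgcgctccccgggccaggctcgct
MAFF: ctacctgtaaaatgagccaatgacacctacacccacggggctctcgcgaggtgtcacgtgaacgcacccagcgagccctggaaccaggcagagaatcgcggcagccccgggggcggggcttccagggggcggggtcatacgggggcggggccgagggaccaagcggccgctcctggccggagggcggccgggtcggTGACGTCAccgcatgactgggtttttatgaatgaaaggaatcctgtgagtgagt
JUN: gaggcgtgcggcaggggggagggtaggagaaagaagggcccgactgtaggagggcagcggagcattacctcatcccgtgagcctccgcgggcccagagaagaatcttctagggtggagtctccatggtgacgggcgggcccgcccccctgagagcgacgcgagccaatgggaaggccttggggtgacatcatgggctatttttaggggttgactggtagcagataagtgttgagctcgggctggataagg
DUSP2: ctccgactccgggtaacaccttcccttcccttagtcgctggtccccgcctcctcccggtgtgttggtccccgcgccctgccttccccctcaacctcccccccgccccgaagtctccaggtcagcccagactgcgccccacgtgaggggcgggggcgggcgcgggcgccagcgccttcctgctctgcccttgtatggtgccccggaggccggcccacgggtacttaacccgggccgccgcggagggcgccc

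A RefSeq promoter window of 300 bases, from 250 before to 50 after the start, was given for 41 of the 50 members and for 27305 genes in all. The CArG box, the element bound by serum response factor, was searched on both strands with a run of A or T between its outer CC and GG. It stood in 351 of all windows (1.29%) and in 1 member, EGR1, which held it at 105 and at 83 bases before the start. The cAMP response element TGACGTCA stood in 540 windows (1.98%) and in 4 members, namely DUSP1, DUSP8, JUND and MAFF. The AP-1 site, TGAGTCA or TGACTCA, stood in 1344 windows (4.92%) and in 2 members, FOSL2 and SPRED3. The ETS site CCGGAAGT stood in 1211 windows (4.44%) and in 2 members, ERBB2 and NRAS. The printed JUN and DUSP2 windows held none of these letters in full. Near matches, such as tgacatca in the JUN window, were not searched for. Bases outside the windows of 300 were not searched either, so a member without a match may hold these motifs farther away. The 4 motifs do not overlap each other in the printed windows.

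Each library held between 88361827 and 93346824 counts. FAM60A itself had 11028, 10165 and 12792 counts in controls and 5684, 5793 and 5449 in knockouts. All knockout libraries were below all controls, and the log2 fold change was -0.85 (SE 0.11, adjusted p = 0.00863 by edgeR's quasi-likelihood test on all 6 libraries with TMM scaling). Leaving out knockout 1, 2 or 3 took the adjusted p to 0.0719, 0.0571 and 0.0736 by the same test. Counts of RNA do not measure the protein. Control replicate 3 stood apart from the other controls. It differed by more than 4-fold from control 1 and 2 in 1685 and 1646 genes, where those controls differed from each other in 13, and from the knockout libraries in 769 to 830 genes. Mitochondrial genes took 3.97% to 5.57% of counts in controls and 8.70% to 10.1% in knockouts. All 7 marker genes listed for HEK293 were detected in each library, and their summed level was 1662, 1713 and 960 CPM (counts divided by the TMM-scaled size of each library) in controls and 744 to 884 CPM in knockouts. VIM and KRT8 made up most of each sum, while NEFL, INA and PAX2 were highest in control 3. The 5 markers of MDA-MB-231, the other cell line of the study, summed to 410, 420 and 101 CPM in controls and 116 to 128 CPM in knockouts. ANXA1 alone had 286, 295 and 17.0 CPM in controls and 19.4 to 22.1 CPM in knockouts. In knockouts CAV1 and S100A4 were also below controls 1 and 2, while CD44 and AXL were above them. No gene of this set was called by edgeR or limma-voom, with 2 at an unadjusted p of at most 0.05 and 2 called by DESeq2. The epithelial markers summed to 211, 216 and 482 CPM in controls and 564 to 592 CPM in knockouts, the fibroblast markers to 19.7 to 28.6 CPM over all libraries, and the blood markers to 0.300 to 1.74 CPM. By edgeR no epithelial or blood marker was called. Of each set, 1 had an unadjusted p of at most 0.05 by edgeR, and DESeq2 called 1. Limma-voom called 1 epithelial marker higher, EPCAM (adjusted p = 0.0438). By edgeR 2 fibroblast markers were higher and 1 lower. For HEK293, 2 markers were lower by edgeR and by limma-voom, 4 by DESeq2 and 5 at an unadjusted p of at most 0.05 in edgeR. Of 7 heat shock genes, edgeR called 2 higher, HSPA1B and HSPH1, and 1 lower, HSPB1. Among all genes tested, edgeR called 7.96% higher and 8.67% lower. Control 3 was the lowest of the 6 libraries in 5 of the 7 heat shock genes, beside 25.1% of all genes. The part of these markers in the results was not tested. In bulk RNA, a change in the share of cells and a change per cell cannot be told apart.

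Across the 50 genes, 12 differed between knockout and control at an adjusted p of at most 0.05 (24.0%), where 16.6% of all tested genes did. EGFR, FGFR2, SPRY1, SPRED3, FOS and JUN rose, against 7.96% of all genes. ARAF, MAP2K1, MAP2K2, DUSP2, IER5 and KLF2 fell, against 8.67% of all genes. With a log2 fold change of at least 1 in size as well, FOS rose and DUSP2 and KLF2 fell, which is 3 of 50 beside 7.06% of all genes (3.34% higher and 3.72% lower). The median log2 fold change was -0.28 over the 50 genes and -0.01 over all genes tested. The knockout libraries did not overlap the controls in 22 of the 50 genes, above them in 10 and below them in 12, where 41.6% of all genes did not overlap, 21.5% above and 20.1% below. DESeq2 called 17 of the 50 beside 26.6% of all genes, and limma-voom called 10 beside 16.8%. With library size in place of TMM, 6 of the 50 were higher and 11 lower, beside 5.88% and 12.7% of all genes.

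JUN was called in each of the 6 fits that left out 1 library. MAP2K2 lost its call without knockout replicate 1 (adjusted p = 0.0782, edgeR) or 3 (0.0736). EGFR kept its call only without control 1 (adjusted p = 0.0463, edgeR) or control 3, and IER5 likewise (0.042 without control 1). The other 8 kept theirs only without control 3, with edgeR adjusted p between 0.0513 and 0.19 in the 5 remaining fits. Without control 3 the background itself moved, to 65.6% of all genes. There 45 of the 50 were called, 13 higher and 32 lower, beside 32.4% and 33.2% of all genes. With the fold threshold 4 were higher and 14 lower, beside 13.1% and 9.75% of all genes (22.9% in either direction). The median log2 fold change of the 50 was then -0.42, and that of all genes was -0.00. By limma-voom with all libraries the median of the 50 was 0.00.

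**Figure D1:**
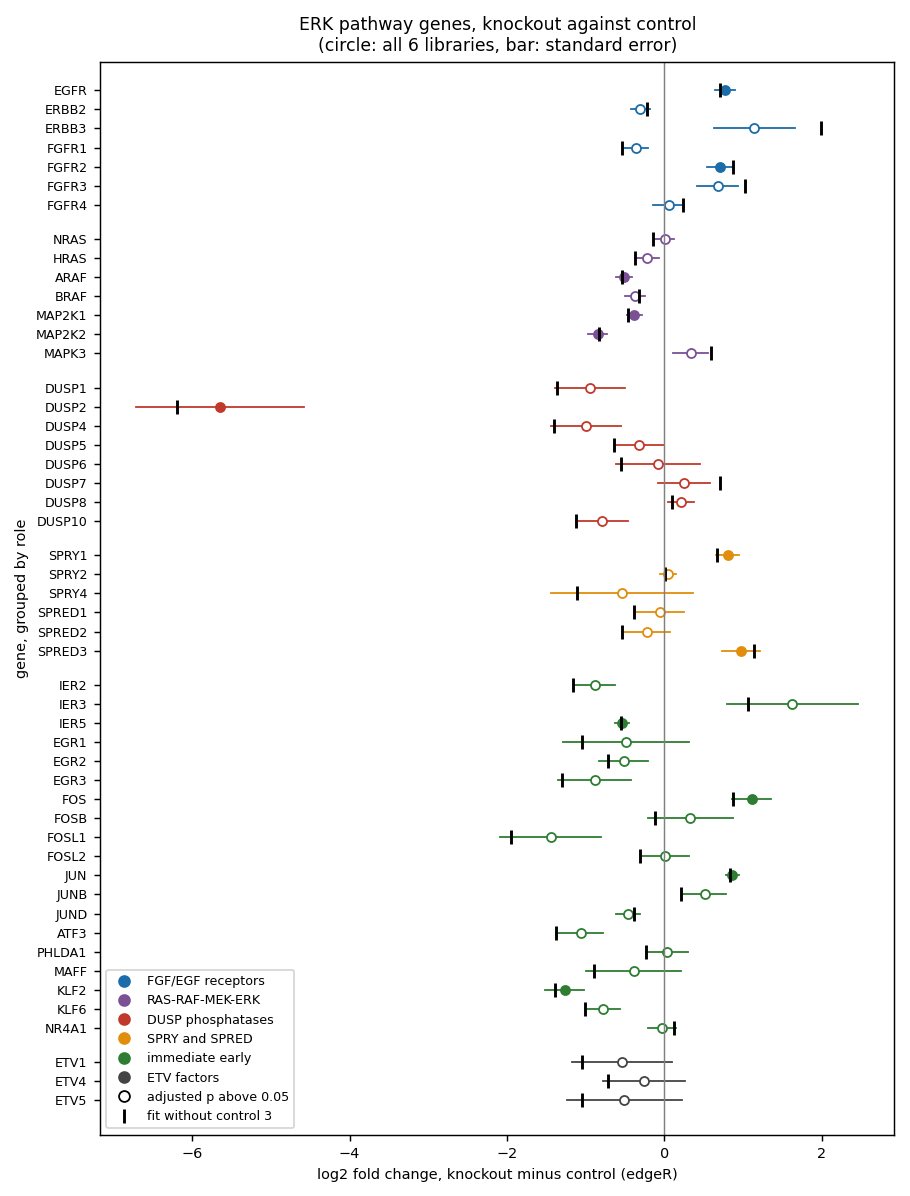
Log2 fold change of each of the 50 genes by role, as circles with 1 SE for all 6 libraries (filled where the adjusted p was at most 0.05) and as a vertical mark for the fit without control 3. Most open circles lie between -1 and 1, and DUSP2 lies farthest from 0 at -5.65.

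The receptors bind extracellular growth factors. Of the 7 listed, 2 rose and none fell by edgeR, limma-voom or DESeq2, with 1 lower at an unadjusted p of at most 0.05 in edgeR. Among all genes tested, edgeR called 7.96% higher and 8.67% lower. EGFR, the receptor of epidermal growth factor, had 1723, 1472 and 1506 counts in controls and 2277, 2197 and 2722 in knockouts. Every knockout library was above every control, and EGFR rose by a log2 fold change of 0.77 (SE 0.127, adjusted p = 0.0147, edgeR). FGFR2, a receptor of fibroblast growth factors, had 2936, 2714 and 4021 counts in controls and 4460, 4792 and 4947 in knockouts. It rose by 0.71 on the log2 scale (SE 0.16, adjusted p = 0.0327, edgeR), with control 3 lying between the other controls and the knockouts.

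ERBB3, a receptor of neuregulins with little kinase activity of its own, had the largest fold change among the receptors but was not called. Its counts were 780, 708 and 2593 in controls and 2577, 2530 and 3008 in knockouts. Control 3 was near the knockout libraries, and the log2 fold change of 1.15 had an adjusted p of 0.167 by edgeR. Without control 3 it was 1.99. FGFR3 had the same shape, with 2384, 2343 and 4484 counts in controls and 4280 to 4521 in knockouts (log2 fold change 0.68, adjusted p = 0.126, edgeR). ERBB2, the partner receptor without a known ligand, FGFR1 and FGFR4 had log2 fold changes of -0.31, -0.36 and 0.06, and none was called. The sums over the 7 receptors were 254 and 260 CPM in controls 1 and 2, 326 in control 3 and 309 to 325 CPM in knockouts.

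Per length, ERBB2 had the highest level of the receptors in controls 1 and 2, at 10.0 CPM per kilobase of exon, and ERBB3 the lowest at 0.657. In the knockout libraries FGFR3 had 10.5 and ERBB2 8.80 CPM per kilobase. FGFR1, at 3.60 in controls 1 and 2, was at 2.53 in knockouts, below FGFR2 at 2.90 and ERBB3 at 2.66. These 3 knockout levels lay close together, and differences in level between genes were not tested. The length is the union of all annotated exons, 18.8 kb for FGFR2 and 4.85 kb for FGFR3. Before division by it, these 2 genes had 54.5 and 50.8 CPM in knockouts. The order per length thus depends on the annotation, and the lengths of the transcripts in these cells were not measured.

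The cascade list held 7 GTPases and kinases, with log2 fold changes between -0.85 and 0.34. Of these, 3 fell by edgeR, beside 8.67% of all genes. None rose by edgeR, limma-voom or DESeq2 or had a positive fold change at an unadjusted p of at most 0.05. MAP2K2, the gene of the kinase MEK2 that phosphorylates ERK, had 12197, 13462 and 14055 counts in controls and 6079, 7515 and 6215 in knockouts. The groups were well apart, and it fell by 0.85 on the log2 scale (SE 0.115, adjusted p = 0.00948, edgeR). MAP2K1, which encodes MEK1, had 7867, 7258 and 6831 counts in controls and 4927, 5430 and 4789 in knockouts (log2 fold change -0.38, SE 0.0973, adjusted p = 0.0451, edgeR). MAP2K1 lost its call by limma-voom (adjusted p = 0.051) and in edgeR with no filter (0.0948), which left 2 of the 7 lower by limma-voom.

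ARAF, a RAF kinase upstream of MEK, had 6686, 7557 and 7189 counts in controls and 4136, 4928 and 4442 in knockouts. All knockouts were below all controls, and it fell by 0.51 on the log2 scale (SE 0.0993, adjusted p = 0.022, edgeR). BRAF, its paralog, was below the controls in each knockout library as well but was not called by edgeR (log2 fold change -0.37, adjusted p = 0.0863), while DESeq2 called it lower (adjusted p = 0.0179). The GTPases NRAS and HRAS had log2 fold changes of 0.00 and -0.21, and MAPK3, which encodes ERK1, had 0.34. None of these 3 was called. MAP2K1 shares 216 exon bases with SNAPC5 on the other strand, whose counts were 4094, 4324 and 2377 in controls and 1407 to 1677 in knockouts, and BRAF shares 1239 with NDUFB2. The strand setting of the counting is not given in the sources used here, so reads there are uncertain, as are those between MAP2K1 and its pseudogene MAP2K1P1. The same holds where ERBB2 meets MIEN1 and PGAP3, JUNB meets HOOK2, MAFF meets PLA2G6 and ETV4 meets DHX8.

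The dual-specificity phosphatases remove both phosphates of the activation loop of ERK and its relatives. Of the 8 listed, 1 fell by edgeR, beside 8.67% of all genes. None rose by edgeR, limma-voom or DESeq2, or had a positive fold change at an unadjusted p of at most 0.05. DUSP2, a nuclear phosphatase found in activated blood cells, had 228, 324 and 24 counts in controls and 2, 4 and 4 in knockouts. Control 3 was far below the other controls and still above each knockout library. DUSP2 fell by 5.65 on the log2 scale (SE 1.07, adjusted p = 0.0206, edgeR), a value that rests on 10 counts in the knockout libraries together. By limma-voom it was not called (log2 fold change -4.88, adjusted p = 0.0792), so limma-voom called none of the 8 phosphatases lower. Per library size, controls 1 and 2 held 74.3 times the knockout level (95% exact interval 40.1 to 156, counting error only), and control 3 held 6.47 times (2.98 to 15.1). Without control 3 the log2 fold change was -6.20.

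DUSP1, a nuclear phosphatase that also acts on p38 and JNK and whose cAMP response element is printed above, had 9997, 10915 and 3016 counts in controls and 3575, 4040 and 3521 in knockouts. Control 3 was lower than the knockouts, and the log2 fold change of -0.95 was not called (adjusted p = 0.185, edgeR). DUSP4 had 2035, 2099 and 621 counts in controls and 648 to 797 in knockouts, with the same order and a log2 fold change of -0.99. DUSP6, the cytoplasmic phosphatase that acts most selectively on ERK, had 1100, 1176 and 245 counts in controls and 709, 678 and 751 in knockouts. Its knockout libraries lay between control 3 and the other controls, and its log2 fold change was -0.08 with all libraries (adjusted p = 0.929, edgeR) and -0.55 without control 3. DUSP10, DUSP5, DUSP7 and DUSP8 had log2 fold changes between -0.79 and 0.25, and none was called. Control 3 was the lowest of the 6 libraries in 5 of the 8 phosphatases, beside 25.1% of all genes tested.

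Sprouty and SPRED proteins hold back signalling between the receptor and RAF. Of the 6 listed, 2 rose, and none fell by edgeR, limma-voom or DESeq2 or at an unadjusted p of at most 0.05. Among all genes tested, edgeR called 7.96% higher and 8.67% lower. SPRED3 had 184, 237 and 302 counts in controls and 418, 371 and 488 in knockouts. Each knockout was above each control, and it rose by 0.97 on the log2 scale (SE 0.238, adjusted p = 0.04, edgeR, and 0.0582 with no filter). SPRY1 had 1168, 1218 and 934 counts in controls and 1767, 1835 and 1601 in knockouts, and rose by 0.80 (SE 0.15, adjusted p = 0.0201, edgeR). SPRY4, another Sprouty gene, had 1230, 1220 and 61 counts in controls and 435, 589 and 537 in knockouts. The knockouts were below controls 1 and 2, at 0.472 of their CPM, and far above control 3, at 9.48 times its CPM. With all libraries SPRY4 was not called (log2 fold change -0.53, adjusted p = 0.712, edgeR), and by limma-voom its fold change lay on the other side of 0, at 0.35. SPRED1, SPRED2 and SPRY2 had log2 fold changes of -0.06, -0.22 and 0.05. Control 3 was the lowest library in 5 of these 6 genes, beside 25.1% of all genes tested. In SPRY2 the margin was small, at 17.2 CPM against 17.4 to 19.0 CPM in the other libraries.

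The 19 immediate early genes encode mostly transcription factors. Of these, 2 rose and 2 fell by edgeR, beside 7.96% and 8.67% of all genes. JUN, the DNA-binding partner of FOS in the AP-1 factor, had 32628, 32277 and 32912 counts in controls and 51468, 55612 and 52913 in knockouts. Control 3 lay with the other controls, and the knockouts were above them all, at 615 ± 17.6 CPM against 337 ± 2.80 CPM (SD, n = 3 each). JUN rose by 0.87 on the log2 scale (SE 0.0824, adjusted p = 0.00404, edgeR). FOS had 529, 526 and 315 counts in controls and 849, 1012 and 792 in knockouts. The groups did not overlap, and it rose by 1.11 (SE 0.247, adjusted p = 0.0312, edgeR), or 0.87 without control 3.

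KLF2, a zinc finger factor known from endothelial cells under flow, had 145, 199 and 141 counts in controls and 49, 76 and 56 in knockouts. Controls did not overlap knockouts, and KLF2 fell by 1.27 on the log2 scale (SE 0.254, adjusted p = 0.0238, edgeR). IER5, an early gene linked to the heat shock factor HSF1, had 10788, 11555 and 11557 counts in controls and 6796, 7472 and 6748 in knockouts. Control 3 was within the range of the other controls, and IER5 fell by 0.53 (SE 0.0876, adjusted p = 0.0144, edgeR). ATF3, a stress-induced factor of the AP-1 group, had 15761, 16851 and 7825 counts in controls and 5450 to 6384 in knockouts, with a log2 fold change of -1.07 and an adjusted p of 0.0504 by edgeR. KLF6 was likewise below the controls in each knockout (log2 fold change -0.77, adjusted p = 0.0518, edgeR). DESeq2 called ATF3 and KLF6 lower (adjusted p = 0.00405 and 0.00768), as well as IER2 (0.00971).

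Of the 7 JUN and FOS family genes, which encode the AP-1 subunits, JUN and FOS rose, while JUNB (log2 fold change 0.51), JUND (-0.46), FOSB (0.33), FOSL2 (0.01) and FOSL1 (-1.44) were not called by edgeR with all libraries. By DESeq2 JUND was called lower (adjusted p = 0.0353). FOSL1, which encodes FRA1, had 1003, 1087 and 164 counts in controls and 218, 283 and 245 in knockouts, so the knockouts were nearer to control 3 than to the others. FOSB had 278, 344 and 72 counts in controls and 198, 290 and 299 in knockouts, nearer to controls 1 and 2. Per length, JUN was the highest AP-1 subunit, at 92.7 CPM per kilobase in controls 1 and 2 and 170 in knockouts, and FOS was at 1.71 and 3.20. FOSB was at 0.580 and 0.543.

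**Figure D2:**
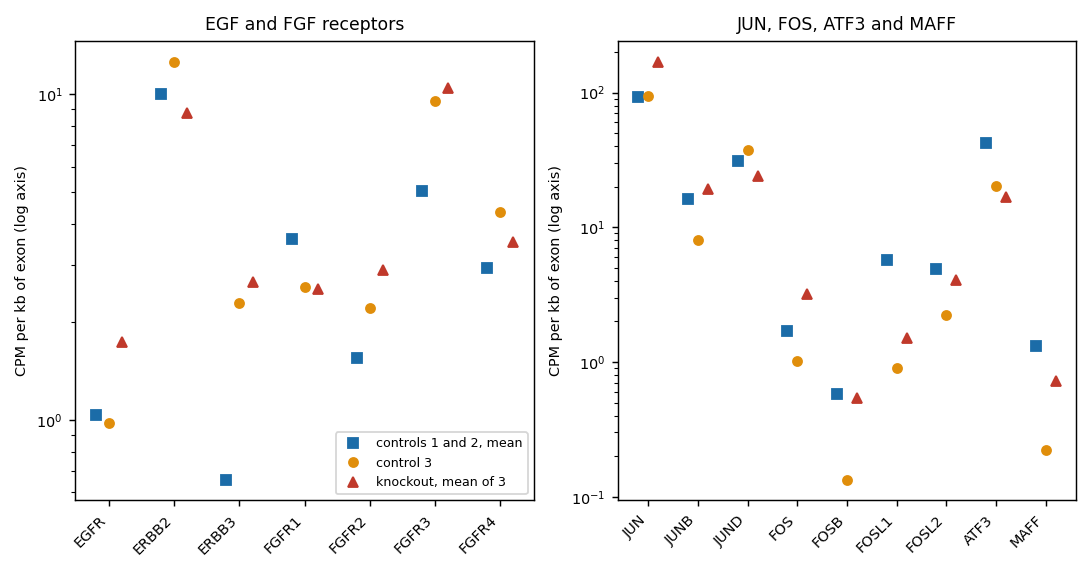
Level per length (CPM per kilobase of exon, log axis) of the 7 receptors in one panel and of the JUN and FOS family, ATF3 and MAFF in the other. Squares are the mean of controls 1 and 2, circles control 3 and triangles the mean of the knockouts, and JUN is at 92.7, 94.0 and 170.

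EGR1, a zinc finger factor and a standard readout of serum response, had 4262, 4514 and 336 counts in controls and 1649, 2286 and 1902 in knockouts. The knockouts were at 0.493 of the CPM of controls 1 and 2 and at 6.44 times that of control 3. With all libraries the log2 fold change of -0.49 had an adjusted p of 0.702 by edgeR. EGR3 and EGR2, which had fewer counts (59 to 211 and 47 to 139), had log2 fold changes of -0.89 and -0.52 and were not called. IER3, an early gene that acts on cell survival, had 6152, 6123 and 425 counts in controls and 11598, 12385 and 11262 in knockouts. The knockouts were above every control, at 2.13 times the CPM of controls 1 and 2 and 30.8 times that of control 3. The log2 fold change of 1.63, the highest of the 50 in the fit with all libraries, was not called (adjusted p = 0.219, edgeR). MAFF, a small MAF factor without an activation domain, had 673, 759 and 121 counts in controls and 341 to 378 in knockouts. IER2, PHLDA1 and NR4A1, an orphan nuclear receptor, had log2 fold changes of -0.89, 0.04 and -0.03.

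ETV1, ETV4 and ETV5 form the PEA3 group of ETS factors, which are transcribed in many tissues where fibroblast growth factors signal. With all libraries none was called by edgeR, limma-voom or DESeq2, and none had an unadjusted p of at most 0.05, with log2 fold changes of -0.54, -0.26 and -0.51. ETV5 had 2835, 2729 and 290 counts in controls and 1126, 1336 and 1240 in knockouts, ETV1 had 1921, 1756 and 279 in controls and 773 to 864 in knockouts, and ETV4 had 3174, 3671 and 782 in controls and 1771 to 2189 in knockouts. All 3 had the same order, with control 3 lowest, the knockouts between and controls 1 and 2 highest. Their summed level was 81.6 and 84.9 CPM in controls 1 and 2, 14.0 CPM in control 3 and 43.7, 49.4 and 43.9 CPM in knockouts. By limma-voom, ETV4 and ETV5 had log2 fold changes of 0.02 and 0.07 with all libraries, on the other side of 0. Without control 3 edgeR called all 3 lower, as it did 33.2% of all genes.

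That order recurred in the list, as a description without a test. Control 3 was the lowest of the 6 libraries in 24 of the 50 genes, beside 25.1% of all genes tested, and the highest in 7, beside 26.4%. It was lowest with the knockouts also below controls 1 and 2 in 17 genes, beside 10.0% of all genes. Control 3 was at least 4-fold lower than controls 1 and 2 in 11 genes, beside 2.17% of all genes. These were DUSP2, DUSP6, SPRY4, IER3, EGR1, FOSB, FOSL1, MAFF, ETV1, ETV4 and ETV5, that is phosphatases, a Sprouty, early genes and the ETV group. At least 2-fold lower were 21 genes (8.52% of all), and at least 2-fold higher were 2, ERBB3 and DUSP7 (15.7% of all).

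Among those 11 genes the knockouts were above control 3 in 10, from 1.69 times for FOSL1 to 30.8 times for IER3, and below it in DUSP2. They were below controls 1 and 2 without overlap in 9 of the 11, the exceptions being IER3, which was above them, and FOSB, which overlapped them. So for SPRY4, EGR1 and the ETV genes the direction of the difference from a control depended on which control library it was set against. Against controls 1 and 2 the knockouts were at least 2-fold lower in 13 of the 50 genes (8.13% of all genes) and at least 2-fold higher in 4 (13.8%).

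**Figure D3:**
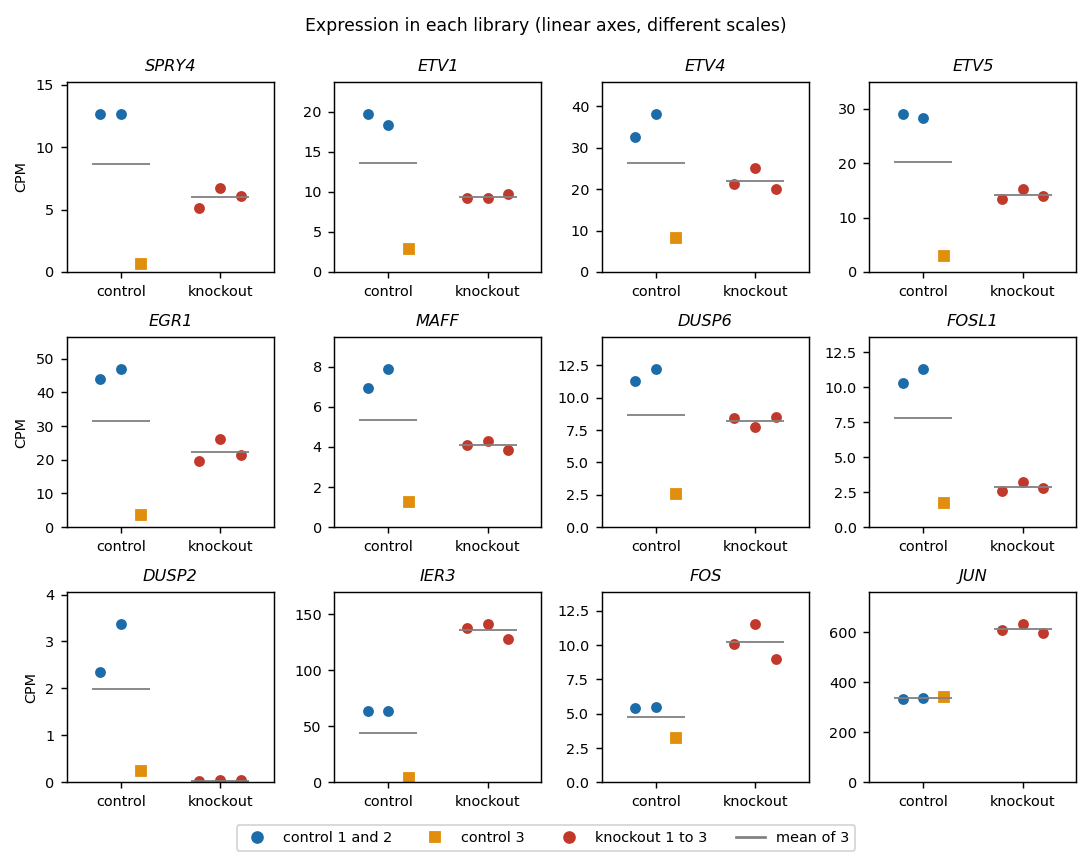
CPM in each of the 6 libraries for 12 genes of the list, on linear axes of different scale, with 1 point per library and a line at each group's mean. JUN is higher in all knockouts than in all controls, while SPRY4, EGR1 and the ETV genes are lowest in control 3 (square) with the knockouts between it and controls 1 and 2.

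**Figure D4:**
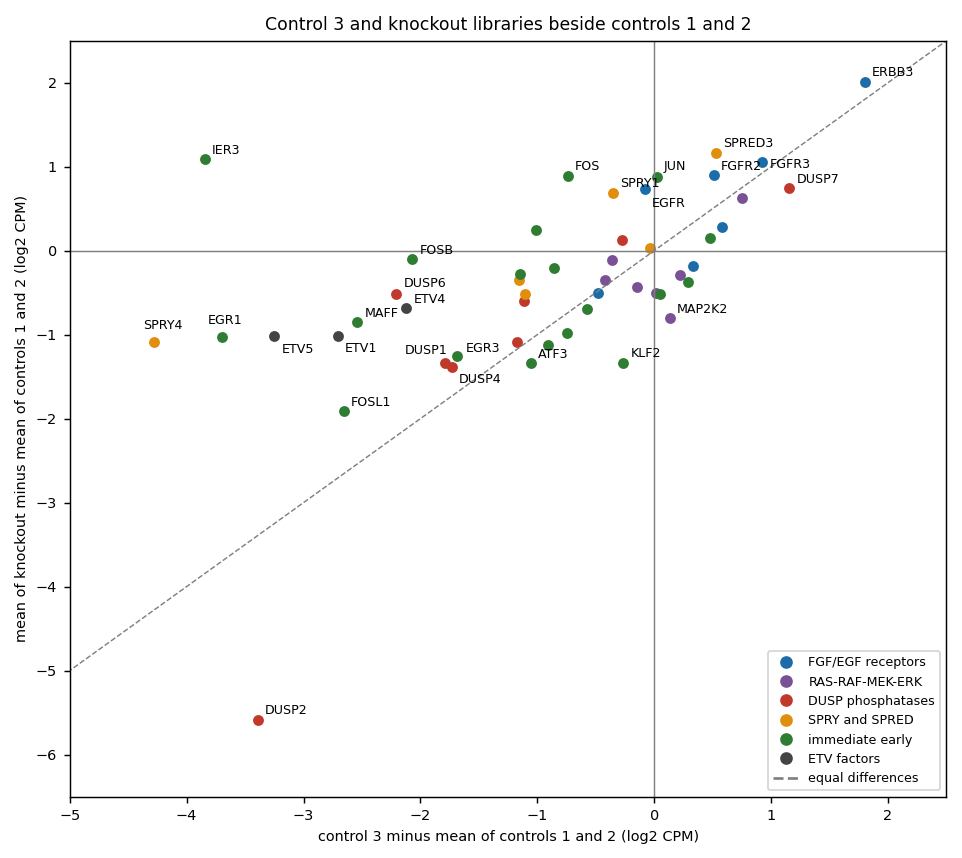
Difference in log2 CPM from the mean of control replicates 1 and 2, for control replicate 3 (x axis) and for the mean of the knockout libraries (y axis), one point per gene of the 50. The dashed line marks equal differences, both axes share controls 1 and 2, and SPRY4, IER3 and EGR1 lie farthest to the left.

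The other genes of the pathway were a list of 78 ligands, adaptors, RAS regulators, scaffolds, effectors, further phosphatases and further targets, of which 74 were tested. Of these, 5 rose (EGF, FGF9, ARC, LIF and SPHK1) and 9 fell (FGF1, FGF18, NF1, KSR1, RPS6KA2, MKNK2, ETS1, DUSP3 and DUSP14), which is 18.9% beside the 16.6% of all genes. Their median log2 fold change was 0.01. ARC, an early gene best known from neurons, had 628, 700 and 673 counts in controls and 2266, 3009 and 2310 in knockouts. The groups were far apart, at 6.90 ± 0.417 and 29.1 ± 4.50 CPM (SD, n = 3 each). ARC rose by 2.08 on the log2 scale (SE 0.151, adjusted p = 0.00254, edgeR) and was called in each of the 6 fits without 1 library.

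Of the ligands, EGF and FGF9 rose, and FGF1 and FGF18 fell, by edgeR. NRG1, a neuregulin, had 231, 232 and 13 counts in controls and 9 to 14 in knockouts. Its log2 fold change of -3.56 was not called by edgeR (adjusted p = 0.0576) or limma-voom (0.225), but was by DESeq2 (0.000669). TGFA went the other way, with 341, 348 and 1773 counts in controls and 1555 to 1607 in knockouts (log2 fold change 1.09, adjusted p = 0.285, edgeR). FGF9 had 857, 840 and 1057 counts in controls and 1650, 1735 and 1842 in knockouts (log2 fold change 1.08, adjusted p = 0.00834, edgeR). EGF, the ligand of EGFR, had 306, 283 and 164 counts in controls and 410 to 506 in knockouts (log2 fold change 1.06, adjusted p = 0.0458, edgeR). FGF18 had 50 to 54 counts in controls and 17 to 20 in knockouts, and FGF1 had 11 to 22 in controls and 4 to 6 in knockouts, so both fell at low counts. NF1, which switches RAS off, fell by 0.53 on the log2 scale, and KSR1, a scaffold of the cascade, fell by 0.97. FGF9 lost its call without knockout 1, 2 or 3 (adjusted p = 0.0704, 0.0529 and 0.0707, edgeR), and RPS6KA2 likewise (0.0941, 0.0744 and 0.0907). SPHK1 lost its call without knockout 1 or 3 (adjusted p = 0.0662 and 0.053, edgeR). EGF, FGF1, FGF18, NF1, KSR1, LIF, MKNK2, ETS1, DUSP3 and DUSP14 kept theirs only without control 3, with edgeR adjusted p between 0.0512 and 0.204 in the other fits. FGF1 was called neither by DESeq2 (adjusted p = 0.0799) nor by limma-voom (0.0537), and DUSP3 was not called by limma-voom (0.0522). Of the 10 adaptors between receptor and RAS, none was called by edgeR, limma-voom or DESeq2 or had an unadjusted p of at most 0.05.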

How the data were processed

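RNA was poly(A)-selected and sequenced from 3 control and 3 knockout libraries. The authors deposited whole-number counts per Ensembl gene, with no normalization and all columns assigned to a sample. The submitters' processing notes name STAR 2.7.10b, featureCounts 2.0.0 and hg38. The methods name Trimmomatic and Salmon with hg38, and the extract protocol names hg19. Which of these made the table, its annotation and the strand setting are not given in the sources used here.

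Symbols were found for 60878 of 62754 identifiers. Libraries were grouped by their titles. Counts were compared with edgeR 4.0.16 in R 4.3.3 (TMM, filterByExpr with a minimum count of 10, quasi-likelihood F-test, two-sided), with Benjamini-Hochberg adjustment over all 20992 genes tested. CPM used TMM-scaled library sizes, log2 CPM a prior count of 2, and levels per length the exon union of each gene. A gene was called at an adjusted p of at most 0.05, and the fold threshold was a log2 fold change of 1 in size. Library totals of 88361827 to 93346824 counts set the counting error, and the SE covers the spread between libraries.

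The members and lists were chosen with earlier results of these data known, and give no independent support. Counts and full statistics were due, by rule, to members past both thresholds, or past a log2 fold change of 2 without control 3, with the largest changes of each role as examples. The rule also covered other pathway genes past both thresholds and FAM60A as a check. The remaining genes given with counts were chosen after their values were seen.

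The alternatives were DESeq2 1.42.0, limma-voom (limma 3.58.1), library size without TMM, no filter, at least 10 counts in every library, a fit without each single library, and a block for the replicate number. The script was checked on simulated counts. Promoters came from RefSeq GRCh38.p14. Other RNA, protein and ChIP measurements of the study were not used here.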

Additional observations from a re-analysis of the deposited data

How the results depend on the processing

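The reported comparison had 6 genes higher and 6 lower among the 50. These counts changed when any 1 library was left out, and changed most without control 3. Leaving out 1 library in turn gave 1 to 13 higher and 0 to 32 lower (at the fold threshold, 0 to 4 and 0 to 14), and 1 to 25 higher and 0 to 30 lower of the other pathway genes, the upper ends being without control 3. The counts of 0 were by edgeR, with 9 of the 50 lower at an unadjusted p under 0.05 without knockout 1 or without knockout 3, and DESeq2 on all libraries calling 11. DESeq2 gave 11 lower genes of the 50 (14.8% of all genes) and 8 higher other pathway genes (11.7%). Library size without TMM gave 11 lower (12.7%) and, at the fold threshold, 0 higher (2.78%), and moved the median of all genes to -0.12. Limma-voom gave 1 lower at the fold threshold (3.0%), and no filter gave 4 lower other pathway genes (3.35%). Deviations from the group means were hardly correlated between libraries of the same replicate number (correlations 0.0101, 0.0306 and -0.0362). With control 3 far from the other controls, deviations in that group mostly reflect control 3, so pairing could not be decided. A block for the replicate number gave 1 higher and 0 lower gene of the 50, beside 1.94% of all genes (at an unadjusted p under 0.05, 9 and 11), 0 and 0 at the fold threshold (2 and 2), and 1 and 0 of the other pathway genes (13 and 12). JUN was called under all 12 alternatives. Signs turned for uncalled genes, with log2 fold changes by limma-voom of 0.22 for DUSP6, 0.35 for SPRY4, 0.0351 for SPRED1, 0.21 for EGR1, 0.0221 for ETV4 and 0.067 for ETV5. Under the block they were 0.18 for DUSP6, 0.10 for SPRY4, 0.0297 for SPRED1 and 0.0575 for EGR1. By library size they were -0.0519 for FGFR4, -0.11 for NRAS, -0.0592 for SPRY2, -0.10 for FOSL2 and -0.0752 for PHLDA1, and by DESeq2 -0.0212 for NRAS and -0.0129 for FOSL2. Over the fits without 1 library the values ran from -0.12 to 0.24 for FGFR4, -0.14 to 0.0598 for NRAS, -0.55 to 0.24 for DUSP6, -0.38 to 0.11 for SPRED1, -0.12 to 0.74 for FOSB, -0.31 to 0.18 for FOSL2, -0.23 to 0.17 for PHLDA1, -0.16 to 0.12 for NR4A1 and -0.72 to 0.11 for ETV4. The cause of these changes was not tested. With 3 libraries a group, 1 of them apart, the fit could not resolve small differences in either direction, and DUSP2, FGF1, FGF18, EGR2 and KLF2 rest on low counts.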
